A study of Mus musculus with 4 samples.

Results

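Brush border peptidases were examined in laser-captured mouse intestinal crypts, the pockets of epithelium in which stem cells divide and from which new cells move towards the villus. The 9 genes listed were Anpep, Enpep, Dpp4, Dpep1, Ace, Mep1a, Mep1b, Mme and Ggt1, and their members were all probe sets for which the platform annotation named exactly 1 of these genes. The rule found 15 probe sets for 8 genes among the 45101 probe sets of the arrays. Ggt1 had no such probe set, and its expression was not analysed here. The design set 2 arrays from control mice against 2 from mice that carried a tamoxifen-induced deletion of beta-catenin, all sampled on day 2 of the deletion. The labels name no promoter for the tamoxifen-induced deletion, no strain and no age. They do not say whether the controls received tamoxifen, nor whether each array stands for its own mouse. Every p-value below thus reflects the spread among these arrays, which may be technical.

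Brush border peptidases are enzymes anchored in, or bound to, the microvillus membrane of absorptive enterocytes, where they cut the peptides left by gastric and pancreatic digestion into amino acids and di- and tripeptides for uptake. Aminopeptidases trim the N-terminus, dipeptidyl peptidases remove dipeptides, endopeptidases cut within the chain and dipeptidases split the last bond. As a class they are known to become more abundant as cells leave the crypt and mature on the villus. Beta-catenin carries the Wnt signal that maintains the dividing crypt cells.

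Values are the deposited probe set signals and, for the comparison, log2(signal + 5) after quantile normalization, here called the normalized log2 signal. Differences are mutant minus control on that scale, on which a dim probe set shows less than its full change. Tests are by limma over all 22519 probe sets kept by a filter on dim signal, with Benjamini-Hochberg adjustment and a threshold of 0.05. All 15 peptidase probe sets passed the filter. No probe set of any gene passed the test, a share called of 0% (0 of 22519), and 1415 had an unadjusted p under 0.05 (6.28%). In bulk tissue, fewer cells of a type and less RNA per cell cannot be told apart.

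The 4 arrays differed in ways that touch the results. The array called mutant 1 held pancreatic transcripts: 11 of 14 acinar marker genes were measured, with a summed normalized signal of 78270 against 1232 in mutant 2 and 1487 to 1704 in the controls. The actin control probe sets, whose 5' to 3' ratio reports how long the RNA was, gave a higher ratio in control 1 (0.149) and mutant 1 (0.0945) than in control 2 (0.0567) and mutant 2 (0.0448). The 9 measured stem cell and proliferation markers of the crypt were all lower in both mutants than in both controls (19.2% of all kept genes). Their median difference was -1.09, and 0 of the 9 passed the test. The main Ctnnb1 probe set, for beta-catenin itself, differed by -0.56 (SE 0.22; limma, adjusted p = 0.785). Another kept Ctnnb1 probe set, 1450008_a_at, went the other way at 0.38 (SE 0.50), with overlapping groups. The remaining one, 1430533_a_at, was below the filter and differed by -0.51. The deleted exons are not named in the labels.

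As a group, 6 of the 8 peptidase genes stood higher in the mutant crypts and 2 lower, each gene being represented by its probe set of highest mean signal. The median difference was 0.84, against 0.009 over all 11395 kept genes, of which 50.7% stood higher. In 3 of the 8 genes (Dpep1, Dpp4 and Mep1b) both mutants lay above both controls, an arrangement found in 18.9% of all kept genes, and 0 of the 8 had both mutants below both controls (19.2% of all kept genes). Of the 15 probe sets, 0 passed the limma test (0% of all kept probe sets did), and 2, for Dpep1 and Dpp4, had an unadjusted p under 0.05. The direction of the group held with the signals as deposited (6 of 8 genes higher) and with median centring (7 of 8, with Mep1a turning to higher, where the median over all genes was itself shifted by 0.13). The median difference depended on single arrays: it was 1.46 without control 1, 0.19 without control 2, 0.28 without mutant 1 and 1.20 without mutant 2.

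**Figure D1:**
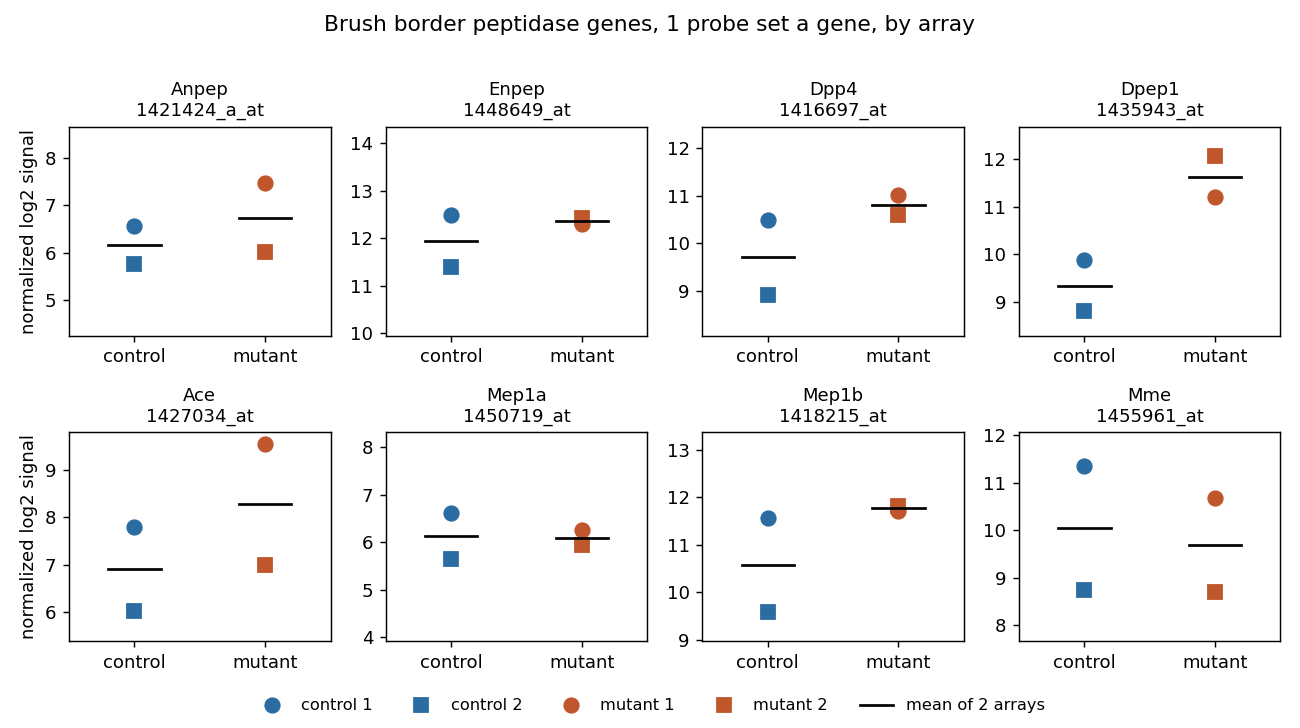
Normalized log2 signal of the 8 measured peptidase genes in each array, 1 probe set a gene. Circles and squares are the arrays numbered 1 and 2, and black lines are means of 2 arrays; every panel spans the same number of log2 units around its own mean. Control 2 (blue square) is below control 1 in all 8 panels, and the groups are separate for Dpp4, Dpep1 and Mep1b.

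Dpep1, which encodes the membrane dipeptidase that splits dipeptides and also acts on the cysteinyl-glycine bond of leukotriene D4, gave the widest separation. Its signals in probe set 1435943_at were 866 and 445 for controls 1 and 2, and 3028 and 3976 for mutants 1 and 2. Both mutants were thus above both controls, and mutant 2 was the highest. The normalized log2 signal averaged 9.35 ± 0.75 (SD, n = 2) over the controls, and the mutants averaged 11.64 ± 0.61 (SD, n = 2). The difference was 2.29 (SE 0.43; 4.89-fold; limma, adjusted p = 0.768). The same probe set passed the test with median centring of the arrays in place of quantile normalization (difference 2.59, adjusted p = 0.00445), a setting in which 102 probe sets passed and the median of all kept genes was shifted by 0.13. With each array left out in turn its difference ranged from 1.76 to 2.85.

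The other Dpep1 probe set, 1419674_a_at, had signals of 748 and 179 for the control pair, and 1919 and 584 for the mutant pair. Here the groups overlapped, since mutant 2 lay below control 1. Its difference was 1.40 (SE 0.66), with a 95% interval of the fit from -0.12 to 2.91. It was 0.32 without control 2 and 2.52 without control 1. Between arrays of the same number, the first probe set differed by 1.33 (mutant 1 minus control 1) and 3.25 (mutant 2 minus control 2), and the other by 0.84 and 1.95. The probe sets thus had the same direction in both comparisons and different sizes. They differed most in mutant 2, where the first stood 0.86 above mutant 1 and the other 1.04 below it.

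The 250 bases before the annotated start of Dpep1 are shown because this gene had the largest difference among the members (RefSeq, GRCm38.p6, chr8:123185985-123186234, plus strand). They were searched on both strands for the letters of 5 motifs known from Wnt or intestinal factors. The motif of TCF/LEF, the partners of beta-catenin, was taken as CTTTGAT. That of the homeobox factor HNF1 was its half-site, GTTAAT. The core of the nuclear receptor HNF4 was written AAAGTCC. The caudal factors (CDX) were represented by TTTATGG, and the zinc finger factors of the GATA family by AGATAA. None of these letters was in this window, so that no base is in capitals.
Dpep1: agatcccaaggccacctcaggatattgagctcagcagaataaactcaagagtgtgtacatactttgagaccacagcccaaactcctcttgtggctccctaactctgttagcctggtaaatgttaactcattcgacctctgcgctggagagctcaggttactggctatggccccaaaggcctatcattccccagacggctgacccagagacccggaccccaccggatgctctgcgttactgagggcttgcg

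Dpp4 encodes dipeptidyl peptidase 4 (CD26), which removes dipeptides ending in proline or alanine from the N-terminus and is also found on T cells. Its signals in probe set 1416697_at were 1299 and 474 for the control pair, and 2677 and 1324 for the mutant pair. Mutant 2 lay just above control 1, so that the groups were separate by a narrow margin. On the normalized scale the controls stood at 9.70 ± 1.10 (SD, n = 2) and the mutants at 10.81 ± 0.30 (SD, n = 2). The difference was 1.11 (SE 0.48; limma, adjusted p = 0.789), and it was 0.33 without control 2 and 1.91 without control 1. The 3 other Dpp4 probe sets differed by 0.48, 0.73 and 0.85, all in the same direction and all with overlapping groups. Among 12 leukocyte markers, 8 were kept by the filter, with 5 higher and 3 lower, and their summed normalized signal was 5691 and 2450 for the control pair, and 2313 and 2930 for the mutant pair. One gene, Lyz2 (a macrophage lysozyme), supplied 4386 of the sum in control 1. Lyz2 was then left out, after its values were seen. The other 7 markers summed to 1305 and 950 for the control pair, and 1650 and 1674 for the mutant pair. Both mutants thus lay above both controls in this sum. The brightest of the 7 was Csf1r, at 9.435 and 9.228 for the control pair, and 9.495 and 10.308 for the mutant pair (normalized log2). Of the 8 kept markers, both mutants lay above both controls in 2 (18.9% of all kept genes) and below both in 1 (19.2%). The T cell genes Cd3e and Cd3g differed by 1.30 (SE 0.61) and -0.37 (SE 0.84). The part of these cells in the Dpp4 values was not tested.

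The aminopeptidases gave smaller differences. Enpep encodes aminopeptidase A, which removes acidic residues and acts on angiotensin II. Its signals were 4832 and 2597 for the control pair, and 6226 and 5390 for the mutant pair. After normalization control 1 (12.49) lay above both mutants (12.30 and 12.43), so that the separation seen in the deposited signals was lost. The difference was 0.42 (SE 0.34), with an interval from -0.37 to 1.20. Its direction turned without control 2 (-0.12).

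Anpep encodes aminopeptidase N (CD13), a broad N-terminal peptidase. Its signals were 97.2 and 46.1 for the control pair, and 212 and 48.0 for the mutant pair, with mutant 1 high and mutant 2 next to control 2. The difference of 0.57 (SE 0.53) rested on mutant 1 and was -0.15 without it. Mutant 1 is the array that held pancreatic transcripts, and their part in the Anpep values was not tested.

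The endopeptidases measured were the subunits of meprin and neprilysin. Mep1b encodes meprin beta, a membrane metalloprotease that can also shed other surface proteins. Its signals were 2627 and 747 for the control pair, and 4222 and 3395 for the mutant pair. Control 2 was the low array, and the other 3 lay within a range of 11.56 to 11.82 on the normalized log2 scale. The difference was 1.19 (SE 0.55; limma, adjusted p = 0.789), and it was 0.20 without control 2 and 2.21 without control 1. Mep1a encodes meprin alpha, which is secreted or held at the membrane by pairing with meprin beta. Its signals were 99.8 and 41.6 for the control pair, and 84.2 and 44.9 for the mutant pair, and both mutants lay between the controls. Its difference was -0.033 (SE 0.44), with an interval from -1.03 to 0.97, and it turned to 0.054 with median centring. The other Mep1a probe set differed by 0.19 (SE 0.41). The intervals of Mep1a and Mep1b (-0.054 to 2.44) overlapped, and the difference between these genes was not tested.

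Mme encodes neprilysin (CD10), a membrane endopeptidase that degrades small peptides such as enkephalins and tachykinins. Its signals in probe set 1455961_at were 2311 and 419 for the control pair, and 2153 and 331 for the mutant pair. The arrays numbered 1 were high and those numbered 2 low in both groups, and the control and mutant values of the same number were close, with differences of -0.66 and -0.040. The overall difference was -0.35 (SE 0.85), with an interval from -2.30 to 1.60 that spans both directions. The other probe set, 1422975_at, had the same arrangement, with signals of 102 and 13.7 for the control pair, and 119 and 10.8 for the mutant pair and a difference of -0.13 (SE 0.92). The beta-actin 5' to 3' ratio followed the same order of numbers; its part in these values was not tested.

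Ace encodes angiotensin-converting enzyme, a peptidyl-dipeptidase of the brush border that is also made by vascular endothelium. Its signals in probe set 1427034_at were 217 and 57.2 for the control pair, and 977 and 95.3 for the mutant pair. Mutant 1 was the highest array and mutant 2 lay below control 1. The difference was 1.36 (SE 0.83), and it was 0.068 without mutant 1. The part of the pancreatic material of mutant 1 in this difference was not tested. The other probe set, 1451911_a_at, differed by 0.28 (SE 0.44), with signals of 68.6 and 24.97 for the control pair, and 63.1 and 39.6 for the mutant pair. Of 7 endothelial markers, 4 were kept by the filter, and their summed normalized signal was 187 and 185 for the control pair, and 170 and 182 for the mutant pair. Pecam1, a defining endothelial gene, was below the filter, with normalized log2 signals between 2.90 and 3.02 in the 4 arrays. Kdr, one of the kept markers, stood at 6.71 and 6.41 for the control pair, and 6.34 and 6.72 for the mutant pair. The part of endothelial cells in the Ace values was not tested.

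The Ace gene has 2 annotated starts in the promoter table. The window of the first (chr11:105967698-105967947, plus strand, GRCm38.p6, RefSeq) is shown for comparison with Dpep1 because it holds a match, the HNF4 core on the minus strand, here in capitals. It lies 104 bases before the start.
Ace: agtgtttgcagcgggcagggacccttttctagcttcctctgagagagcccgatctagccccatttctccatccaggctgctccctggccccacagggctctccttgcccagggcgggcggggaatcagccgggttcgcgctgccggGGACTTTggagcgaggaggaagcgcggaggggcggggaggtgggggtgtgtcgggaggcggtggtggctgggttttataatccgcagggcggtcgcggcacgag

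Of the 9 listed genes, 8 had windows in the search, with 14 windows in all (4 of them for Ggt1). Mep1b had none in the search. For the listed genes, but not for the windows of all genes, the search left out 1 chromosome. The missing window thus does not show that Mep1b lacks an annotated start. No member window held more than 1 match. The TCF/LEF letters were in 2 of the 14 windows, that of Mep1a and 1 of 4 for Ggt1, and in 3.21% of all 32851 windows of this length. The GATA letters were in 2, those of Dpp4 and a Ggt1 start, against 9.99% of all windows. The HNF4 letters were in 2 against 3.58%, and the HNF1 and CDX letters in 0 against 6.43% and 2.43%. A match here is a stretch of letters only.

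**Figure D2:**
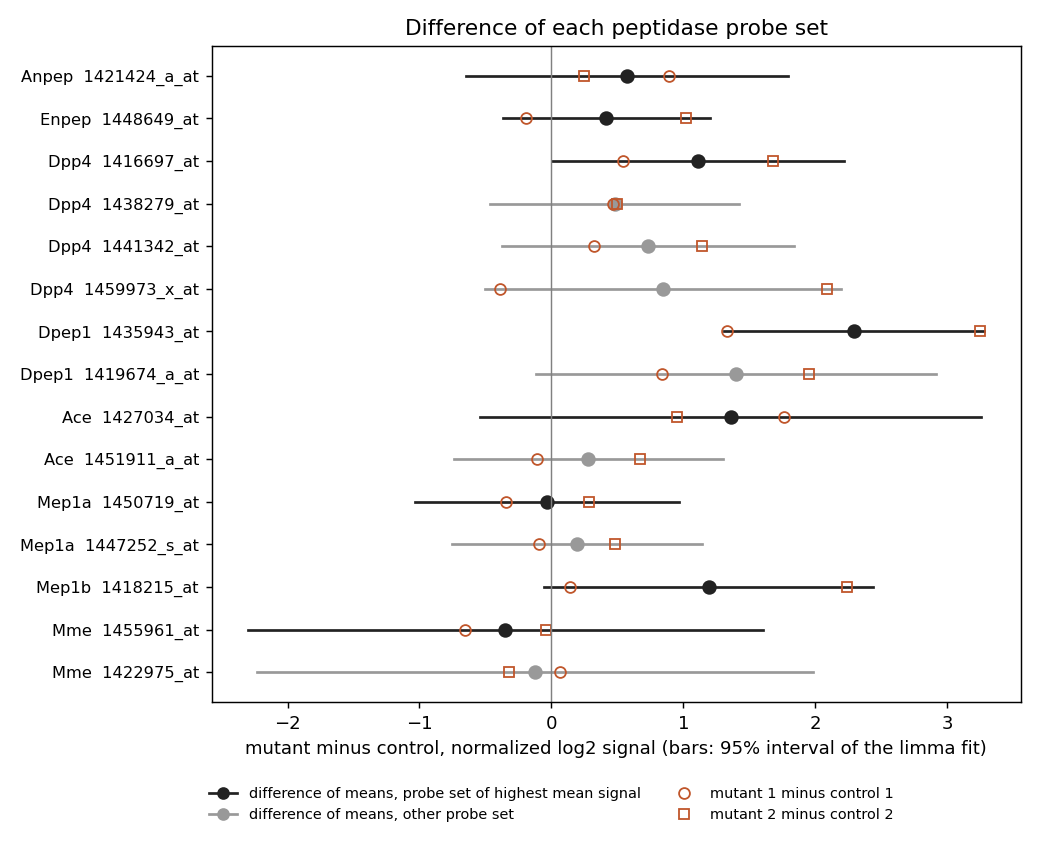
Mutant minus control difference of all 15 peptidase probe sets on the normalized log2 scale. Filled points are differences of group means with the 95% interval of the limma fit (black for the probe set that represents the gene, grey for the others), and open symbols are the differences between arrays of the same number. The Dpep1 probe set 1435943_at lies farthest to the right at 2.29, and the Mme intervals are the widest to the left of 0.

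The controls kept one order across the peptidases, and the mutants did not. Control 1 lay above control 2 in 15 of 15 probe sets and in 8 of 8 genes, with a median gap of 1.32 over the genes; control 1 was the higher in 43.2% of all kept genes. Between the mutants, array 1 was the higher for 5 of the 8 genes (49.8% of all kept genes), with a median gap of 0.38; Dpep1, Enpep and Mep1b went the other way. Mutant 2 lay above control 2 in 7 of 8 genes (median 0.99; 47.5% of all kept genes), and mutant 1 above control 1 in 5 of 8 (median 0.34; 53.4% of all kept genes), a share near that of all genes. The mean normalized log2 signal over the 8 genes was 9.59 and 8.12 for the control pair, and 10.02 and 9.32 for the mutant pair, so that mutant 2 lay below control 1 and the groups overlapped.

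**Figure D3:**
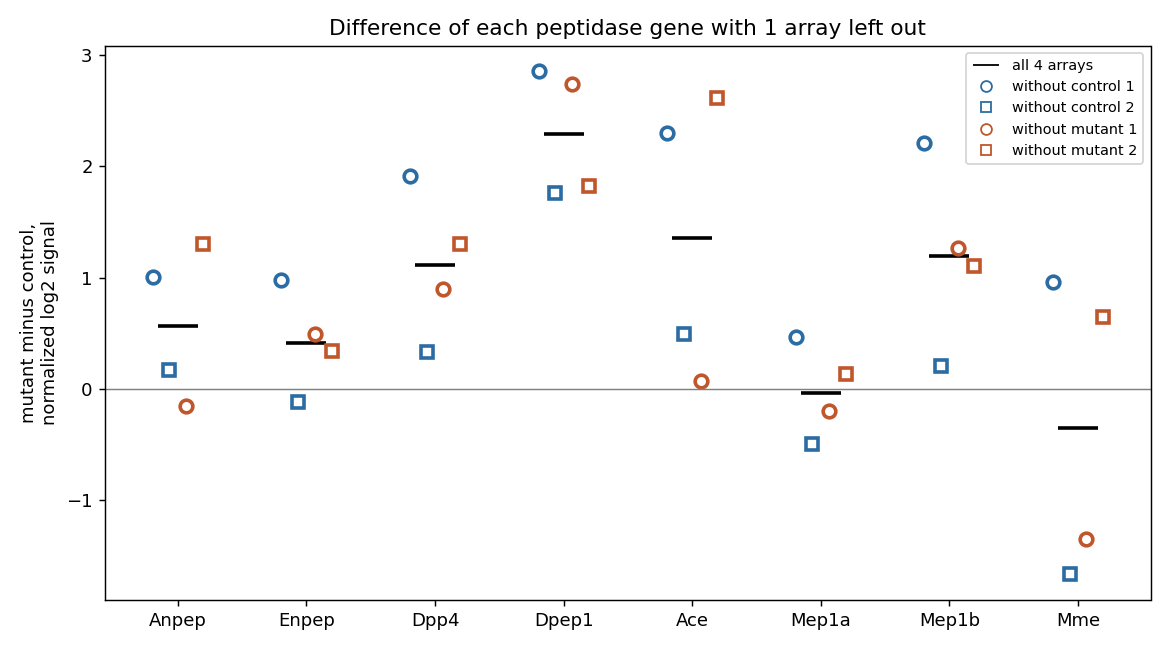
Mutant minus control difference of each peptidase gene with all 4 arrays (black bar) and with 1 array left out (open symbols), on the normalized log2 scale. The Dpep1 probe set shown, 1435943_at, stays between 1.76 and 2.85, Dpp4, Mep1b and Ace stay above 0, and Anpep, Enpep, Mep1a and Mme cross it.

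Within an array, each peptidase can be set against the mean of the other 7, which leaves out what they share. Dpep1 then stood 0.33 and 0.80 above the others for the control pair, and 1.35 and 3.14 above them for the mutant pair, a change of 1.68. Mme went the other way, from 2.00 and 0.71 above the others in the controls to 0.76 above and 0.71 below them in the mutants, a change of -1.34. Mep1a changed by -0.97, and Ace by 0.61, with mutant 1 (-0.54) apart from the other arrays (-2.06 to -2.67). Anpep changed by -0.285 and Enpep by -0.461. A negative change on this measure can come from a rise of the other genes, as the difference of Mep1a itself was -0.033. The values for Dpp4 and Mep1b changed by 0.33 and 0.43. These values have no test, and for Dpep1 and Mme arrays of 1 group lay about as far apart as the changes: the mutants differed by 1.79 for Dpep1, and the controls by 1.29 for Mme.

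Genes of the steps that follow and accompany membrane digestion were taken as a list of 24, of which 20 were kept. They include cytosolic peptidases and the carriers of peptides and amino acids. Of the 20, 15 stood higher and 5 lower, with a median difference of 0.29. Both mutants lay above both controls in 8 of the 20 (18.9% of all kept genes), and 0 passed the test. The smallest p belonged to Slc7a9 and Slc3a1, which together form the carrier for cystine and basic amino acids, with differences of 1.26 (SE 0.30) and 1.17 (SE 0.38), and to Slc7a7, a basolateral carrier of basic amino acids, at 1.05 (SE 0.37). Naaladl1, an ileal peptidase named here after its values were seen, had normalized log2 signals of 8.34 and 6.74 for the control pair, and 8.47 and 9.86 for the mutant pair, with mutant 2 the highest, as for the Dpep1 probe set 1435943_at. Slc15a1, the carrier of di- and tripeptides, stood at 9.57 and 6.01 for the control pair, and 8.95 and 6.90 for the mutant pair, high in the arrays numbered 1 as for Mme. The cytosolic dipeptidase gene Pepd, which splits dipeptides ending in proline, differed by 0.76 (SE 0.52).

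Other products of the same cell surface were compared by list. The 7 kept genes of disaccharide digestion and sugar uptake had a mean normalized log2 signal of 10.78 and 9.19 for the control pair, and 10.60 and 9.40 for the mutant pair, with a median difference of 0.33 and 4 of 7 higher. The gap between peptidases and these genes within an array was -1.19 and -1.07 for the control pair, and -0.58 and -0.081 for the mutant pair, a difference between lists that was not tested. The 11 kept microvillus structure genes gave 9.88 and 9.41 for the control pair, and 10.30 and 9.86 for the mutant pair, with a median difference of 0.38 and 9 of 11 higher. Of 12 markers of villus enterocytes, 11 were kept, 8 higher and 3 lower, with a median difference of 0.20. Their summed normalized signal was 56820 and 40080 for the control pair, and 70510 and 47350 for the mutant pair. Their mean normalized log2 signal was 11.77 and 11.10 for the control pair, and 12.12 and 10.95 for the mutant pair. Mutant 2 thus lay above control 2 in the sum and below it in the mean. The lower mean rested on 1 gene, Ada, which was named after its values were seen. Ada had 10.62 and 12.08 for the control pair, and 12.63 and 6.58 for the mutant pair. By the sum and by the mean, the arrays numbered 1 stood higher in both groups, as in the mean over the peptidases. None of these markers was listed at 0 in any array. The part of villus tissue in the peptidase values was not tested.

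**Figure D4:**
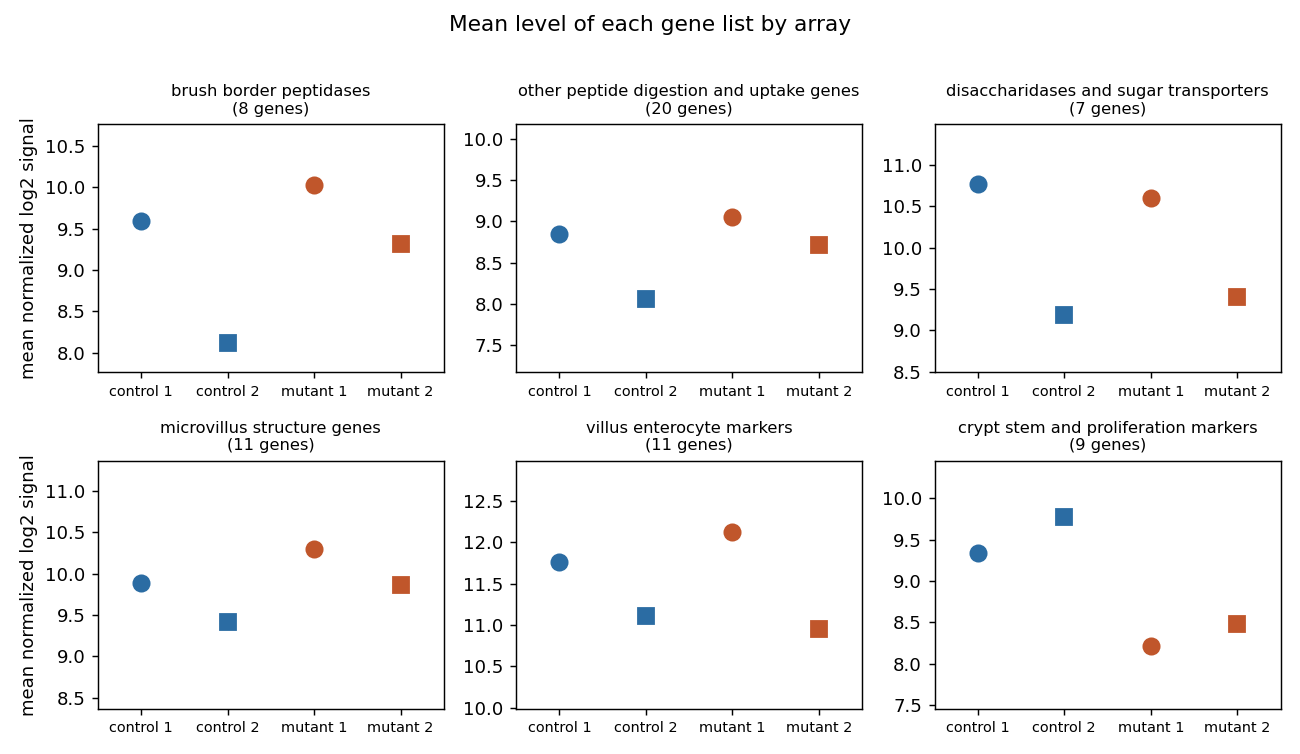
Mean normalized log2 signal of each gene list in each array (blue, control; orange, mutant), with panels that span the same number of log2 units. The peptidases, peptide uptake genes, sugar genes, microvillus structure genes and villus markers are all lower in control 2 than in control 1. The stem cell and proliferation markers are lower in both mutants than in both controls.

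The pattern nearest to the mean of the 8 peptidases over the 4 arrays was that of C2cd2l, with a root mean square difference of 0.0584 on the centred normalized log2 scale among 11387 other kept genes. The next were Iqgap2 (0.0618), the dipeptidase gene Pepd (0.106), Entpd7 (0.108) and the apolipoprotein gene Apoa1 (0.118). With 4 arrays such likeness is a description only.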

How the data were processed

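Total RNA of laser-captured crypts was amplified in 2 rounds and labelled with biotin, per the labels' protocols. The authors deposited linear intensities, 1 value a probe set and array, and the submitters' processing notes name MAS5 as the tool; its scaling target is not given in the sources used here. The array medians of 21.1 to 32 and trimmed means of 111 to 169 showed that the arrays were not on one scale. The 64 control probe sets were left out. The log2 of intensity plus a pseudocount of 5 (the rounded 20th percentile of the table) was taken and quantile normalized. Probe sets at or above the median (50th percentile) of mean log2 signal were kept, 22519 in all, for 11395 genes. Groups were taken from the sample titles and compared with limma 3.58.1 (R 4.3.3; lmFit and eBayes with an intensity trend, two-sided, no covariate), with 2 residual and 6.4 prior degrees of freedom. The procedure was also run on simulated data with independent noise for each probe set. Those data hold no shift shared by many genes of an array. SE values come from the fit, and their precision is limited by the number of arrays. The members and gene lists were chosen with earlier results of these data known. Named genes are all members, up to 3 genes of smallest p in the lists described, and the 5 nearest patterns. Naaladl1, Slc15a1, Cd3g, Pecam1, Ada and Lyz2 as a share of its list were named outside this rule, after their values were seen. Alternatives covered scaling, pseudocount, filter, variance model, replicate number as a block, each array left out, and averaging a gene's probe sets.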

Additional observations from a re-analysis of the deposited data

How the results depend on the processing

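Over all kept probe sets, where 0 passed, 2 passed with the values as deposited, 102 with median centring, for which the prior degrees of freedom were infinite, and 0 to 90 with 1 array left out (20 without mutant 1, 90 without mutant 2). Among the peptidase probe sets, 1 (Dpep1, difference 2.59) passed with median centring; the others did not pass under any alternative. The replicate numbers share no stated origin, and the gaps between arrays 1 and 2 of the groups correlated at 0.0339 over probe sets; with the replicate number as a block, 1 probe set passed in all, no peptidase did, and Dpep1 had an adjusted p of 0.379 (limma). Directions turned for Mep1a with median centring (0.054) and with the mean of its probe sets (0.081). With 1 array left out, the ranges that crossed 0 were -0.15 to 1.30 for Anpep, -0.12 to 0.98 for Enpep, -0.50 to 0.47 for Mep1a and -1.66 to 0.96 for Mme. The median over the genes was 0.57 without Dpep1, chosen after seeing the data. With a gene's probe sets averaged, the mean level over the peptidases was lower in all 4 arrays, at 8.85 and 7.44 in controls 1 and 2 and 9.16 and 8.50 in mutants 1 and 2. This lower level follows from the choice of probe set, since the average brings in probe sets of lower mean signal. The cause of the other changes was not tested.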

Other observations

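Relatives of the brush border enzymes that work elsewhere in the cell or tissue were evenly split: of 10 kept of 14 listed, 5 stood higher and 5 lower, with a median difference of -0.007. Ece1, which encodes endothelin-converting enzyme, a relative of neprilysin, was the member of smallest p, with normalized log2 signals of 7.52 and 7.54 for the control pair, and 8.59 and 8.57 for the mutant pair. Its difference was 1.05 (SE 0.34; limma, adjusted p = 0.768), and the gap between arrays of a group was at most 0.02.

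Of the 8 listed intestinal transcription factor genes, 6 were kept, with 3 higher and 3 lower and differences between -0.22 and 0.19. Goblet cell markers stood higher in 6 of 7 (median 0.54), Paneth cell markers in 1 of 5 (median -0.24), and stromal and muscle markers in 7 of 9 (median 0.12), with 0 past the test in each list.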
